A study of Drosophila melanogaster with 2 samples.

Results

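The Hippo pathway of Drosophila melanogaster was examined for binding of Medea in embryos, at 10 named genes out of 13945 protein-coding genes on the 6 main chromosome arms. The 10 genes were yki, ex, Mer, wts, hpo, sav, sd, Diap1, kibra and ft, taken as a fixed list of pathway components, and every peak with its summit inside the gene or within 5 kb of either end was assigned to that gene. Medea, the fly counterpart of SMAD4, enters the nucleus with receptor-activated Smads after Dpp (BMP) or activin signalling. The map came from 1 group of 2 biological replicates, numbered 2 and 3, of whole embryos of the strain Med-GFP, both sexes pooled, collected between 0 and 24 h. Embryos of both replicates carried a stable transgene for Med with GFP at its C terminus, and chromatin was precipitated with an anti-GFP antibody. The peak lists of both drew on 1 shared further file, taken here to be the control, and no embryos without the tag were used here. There was no second genotype, treatment or stage, so the data give occupancy and its agreement between replicates, and no contrast. Whole embryos mix all tissues and ages of the collection, so a peak does not tell in which cells it arose.

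The Hippo pathway restrains tissue growth. The kinase Hpo, with its scaffold Sav, activates the kinase Wts, which phosphorylates the co-activator Yki and keeps it out of the nucleus. Unphosphorylated Yki enters the nucleus and, with the DNA-binding TEAD protein Sd, drives growth and survival genes such as Diap1. Upstream, the atypical cadherin Ft and the apical proteins Ex, Mer and Kibra feed into the kinases. The genes ex, Mer and kibra are also known targets of Yki and so form a feedback loop. Dpp signalling and the Hippo pathway both act on growth of the wing disc, where Yki and the Smad Mad are known to cooperate at some targets.

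Sequence under the summits of the start sites of kibra, Diap1 and wts is shown first, because these windows share an octamer. Each line is the plus strand of dm6, 50 bp to either side of the summit of a peak in the reproducible list, read from the Release 6 assembly of RefSeq. Capitals mark matches to 8 searched motifs, here TATCGATA, the DNA replication-related element (DRE), and in wts also GTCTG, a Smad box.
kibra start site, chr3R:14724292-14724392: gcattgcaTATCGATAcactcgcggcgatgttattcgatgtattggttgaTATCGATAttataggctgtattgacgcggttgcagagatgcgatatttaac
Diap1 start site, chr3L:16051068-16051168: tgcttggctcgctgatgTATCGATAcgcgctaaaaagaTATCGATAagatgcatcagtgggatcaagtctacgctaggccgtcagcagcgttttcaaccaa
wts start site, chr3R:30806641-30806741: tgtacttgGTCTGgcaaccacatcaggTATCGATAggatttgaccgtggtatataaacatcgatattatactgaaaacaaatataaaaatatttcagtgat
The windows of kibra and Diap1 each held 2 matches to TATCGATA, and that of wts held 1. Summits within introns are shown next because these were the strongest peaks inside Diap1, ex and wts and the 2 strongest inside kibra.
Diap1 intron, stronger summit, chr3L:16045991-16046091: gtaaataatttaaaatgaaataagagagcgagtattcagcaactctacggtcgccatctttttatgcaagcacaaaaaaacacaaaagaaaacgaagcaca
kibra intron, nearer summit, chr3R:14722082-14722182: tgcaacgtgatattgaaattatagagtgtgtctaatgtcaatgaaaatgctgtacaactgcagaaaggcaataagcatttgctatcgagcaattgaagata
kibra intron, farther summit, chr3R:14707035-14707135: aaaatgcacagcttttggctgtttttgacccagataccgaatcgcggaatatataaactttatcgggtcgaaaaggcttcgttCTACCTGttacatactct
ex intron, chr2L:442066-442166: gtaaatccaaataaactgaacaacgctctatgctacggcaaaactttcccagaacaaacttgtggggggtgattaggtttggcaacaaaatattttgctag
wts intron, chr3R:30796887-30796987: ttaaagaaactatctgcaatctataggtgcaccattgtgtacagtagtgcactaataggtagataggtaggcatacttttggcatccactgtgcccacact
Among these 5 intronic windows, only the farther kibra summit held a searched motif, CTACCTG, the reverse complement of the Zelda motif CAGGTAG.

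Reproducible peaks were found in the windows of 9 of the 10 Hippo genes, all but sd, and most of these genes had a summit within 1000 bp of a start site of their own. The list of reproducible peaks is the authors' optimal list by irreproducible discovery rate, with 5867 peaks in dm6. It placed 32 summits, in 31 separate intervals, in the 10 windows, which spanned 232.2 kb. Across all protein-coding genes, 58.1% had such a summit in their span plus 5 kb, with 53.3% for windows under 15 kb, 71.9% for 15 to 25 kb, 74.6% for 25 to 50 kb and 71.8% for 50 kb or more. A summit lay within 1000 bp of a start site (TSS) of 7 of the 10 genes, against 31.3% of all protein-coding genes. The 7 were yki, ex, Mer, wts, hpo, Diap1 and kibra, and the 3 without one were sav, sd and ft. The summit counted for yki lay closer to the TSS of the neighbour Gpat4, at 29 bp against 536 bp. Where the nearest TSS had to be that of the member, 7 genes in place of 9 had a summit in the window, with ft among them but not yki or sav. The members were chosen with earlier results of these data known, so these shares are a description with no test.

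The 32 summits had signals from 173 to 949 with a median of 302, against a median of 282 over the whole list, which ran from 165 to 8099. Signal is the authors' value per peak, in units the sources used here do not state, so it ranks peaks within a list. Of the 32 summits, 16 were above the list median, and the best rank, counted from the strongest peak, was 376. By position 12 lay in introns of the member gene, 12 upstream of it, 7 downstream and 1 in a 5′ UTR, and none in a coding exon. The nearest protein-coding TSS belonged to the member for 19 summits and to a neighbouring gene for 13. The windows thus also hold promoters of neighbours, and 8 summits were within 1000 bp of a neighbour's TSS but not of one of the member.

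**Figure D1:**
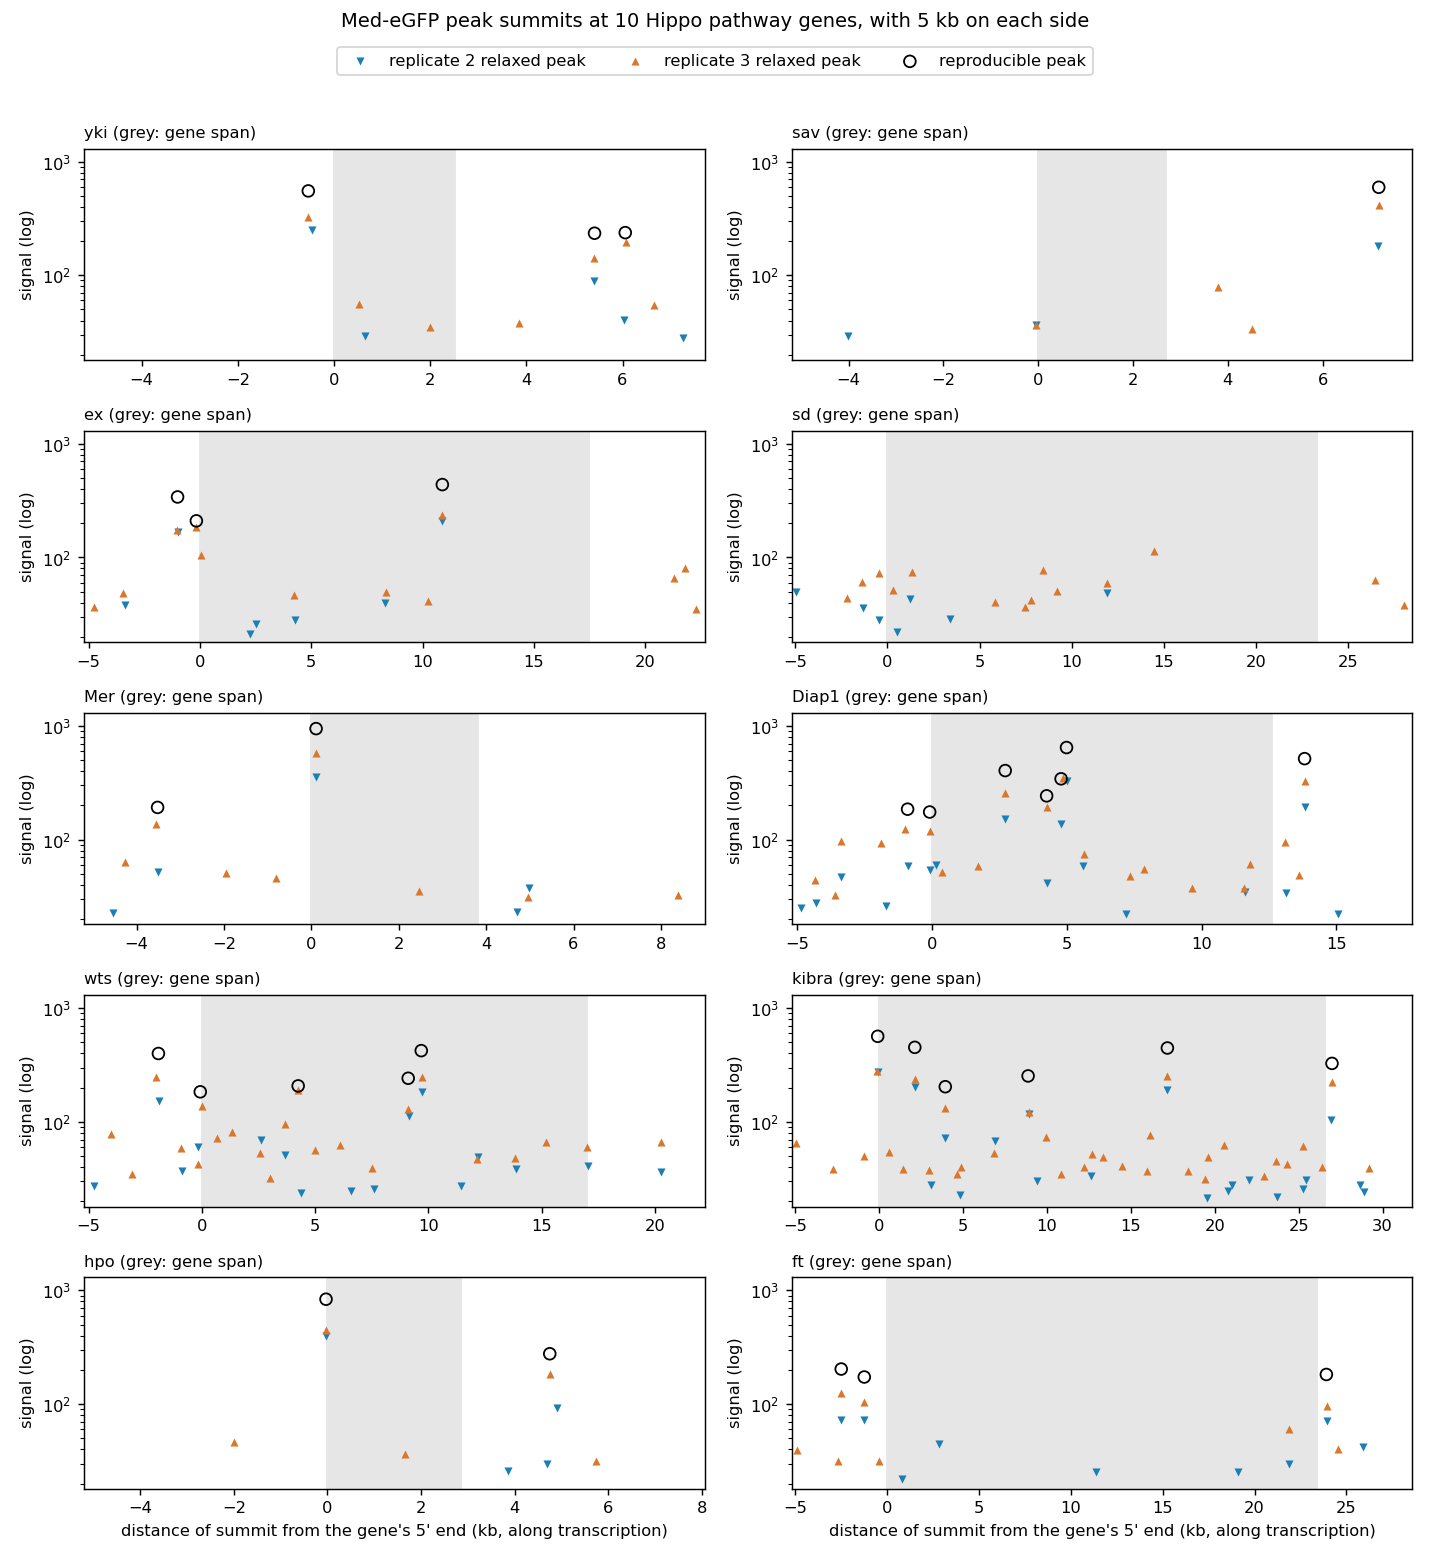
Summits of reproducible peaks (open circles) and of relaxed peaks of replicate 2 (blue) and replicate 3 (orange) at each of the 10 genes. The horizontal axis is the distance from the 5′ end of the gene in kb along transcription, grey marks the gene span, and the vertical axis is the authors' signal on a log scale. Open circles sit at the start sites of hpo, Mer and kibra and inside Diap1, kibra, wts and ex, and none appears at sd.

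Of the cell-surface branch, ft carried only weak peaks, all outside the gene. The gene ft (FBgn0001075) encodes the large protocadherin Fat, the receptor of the pathway, and lies on 2L from 4198404 to 4221796, minus strand. A peak 2506 bp upstream of its TSS had a pooled signal of 204, with 72.4 in replicate 2 and 125 in replicate 3. Another, 1251 bp upstream, had 173, with 72.4 and 104 in replicates 2 and 3. Both upstream summits were found in the top lists of both replicates. The ft peak of 182 lay downstream, 182 bp from the TSS of the neighbour Naprt, with 70.3 and 96.3. No reproducible summit lay within the 23393 bp of the gene. Its 3 peaks ranked from 4506 to 5499 of 5867. Of the 898 genes with windows of 25 to 50 kb, 33.0% had a weaker strongest peak or none. None of the ft peaks was in the stronger part of the list, the 2933 highest signals.

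The apical scaffold gene kibra was bound at its start site and along its long first intron. The gene kibra (FBgn0262127) encodes a WW-domain protein that acts with Ex and Mer, and lies on 3R from 14697689 to 14724261, minus strand. Its start-site peak, with the summit 81 bp upstream of the TSS, had a signal of 566 and rank 1025. Replicate 2 held it at 274 and replicate 3 at 282, nearly equal values on their own scales. The intron carried 4 reproducible summits. The summit 2129 bp from the TSS had a signal of 453, with 202 in replicate 2 and 239 in replicate 3. The summit 17176 bp from the TSS had 447, with 190.4 and 255 in replicates 2 and 3. The weaker intronic summits, at 3946 bp and 8878 bp, had 204 and 254, the weaker with 71.8 and 132 and the stronger with 118 and 122 in replicates 2 and 3. A last peak of 327 lay past the 3′ end, 12 bp from the TSS of Meltrin, a metalloprotease gene, with 103 and 224. Each of the 6 kibra summits was matched within 100 bp by the top lists of both replicates, a top list being the 5867 strongest peaks of a replicate. Genes with fewer reproducible summits made up 94.4% of the 898 genes of similar window length, and 2.9% had more.

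The FERM-domain gene ex had its strongest peak deep inside the gene. The gene ex (FBgn0004583), which encodes Expanded, lies on 2L from 431227 to 448701, plus strand. Its intronic peak 10889 bp from the TSS, in intron 3 of the canonical transcript, had a signal of 438, with 209 in replicate 2 and 235 in replicate 3. The TSS nearest to it was that of crq, at 9186 bp. Upstream, a summit 1002 bp from the TSS had 341, with 169 and 173. The peak nearest the start site, 157 bp upstream, had 210.0 and rested on replicate 3 alone, with 186 there and no overlapping relaxed peak in replicate 2. It was the only one of the 32 without a replicate 2 peak, against 3.95% of the whole list. The nearest summit of replicate 2 was that of the other upstream peak, 986 bp from the TSS.

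The other FERM-domain gene, Mer, had the strongest peak of all 10 genes. Mer (FBgn0086384) encodes Merlin, the fly counterpart of human NF2, and lies on X from 19689697 to 19693500, minus strand. Its peak from 19693229 to 19693520 had the summit 109 bp inside the gene, in intron 1, with a signal of 949 and rank 376. Replicate 2 held it at 354 with rank 565, and replicate 3 at 583 with rank 295. A weaker peak of 192 in the Mer window lay 73 bp from the TSS of Cdc42, with 51.6 and 138 in replicates 2 and 3. The top list of replicate 2 alone held 1 summit in the Mer window, the start-site one. Of the 10461 genes with windows under 15 kb, 93.1% had a weaker strongest peak or none.

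In the kinase core, hpo and wts were bound at their start sites and sav was not. The gene hpo (FBgn0261456), encoding the Ste20-family kinase, lies on 2R from 19493996 to 19496856, minus strand. Its peak from 19496749 to 19497052 had the summit 31 bp upstream of the TSS, a signal of 837 and rank 500. The replicates held it at 394 and 448, with ranks 474 and 510. This summit was also within 1000 bp of a TSS of CG15120. The other hpo peak, of 277, lay downstream, 20 bp from the TSS of Rep, the Rab escort protein gene, with 91.6 in replicate 2 and 183 in replicate 3.

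The gene sav (FBgn0053193), encoding the WW-domain scaffold Salvador, lies on 3R from 23058609 to 23061304, minus strand. Its window held 1 reproducible peak, of 594 and rank 928, but that summit lay 7185 bp from the sav TSS and 37 bp from the TSS of p53, the tumour suppressor gene. The p53 peak had 179 in replicate 2 and 417 in replicate 3. At the sav start site itself, the relaxed lists of both replicates held a weak peak 50 bp and 51 bp upstream, with 36.2 in replicate 2 and 36.7 in replicate 3. In the pooled list that peak had 79.2, below the lowest reproducible signal of 165.

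The gene wts (FBgn0011739), encoding the LATS-family kinase Warts, lies on 3R from 30789625 to 30806619, minus strand, and carried 5 reproducible summits. Its strongest was intronic, 9682 bp from the TSS in intron 2, with 424, and 183 in replicate 2 and 250.1 in replicate 3. A second summit of the same intron, at 9105 bp, had 242, with 112 and 130.1. The start-site peak, 72 bp upstream, was weak, with 184 and rank 5111, with 60.3 in replicate 2 and 139 in replicate 3. Its summit was also within 1000 bp of a TSS of dj-1beta. The replicate 2 summit lay 183 bp upstream of the TSS, 111 bp from the pooled one, and was not in its top list. A summit 4249 bp into the gene, in intron 1, had 207 and differed most between the replicates, with 23.9 in replicate 2 and 189 in replicate 3. The peak of 399.7 lay 1919 bp upstream and 79 bp from the TSS of cindr, an adaptor protein gene, with 153 and 247. Genes with fewer summits made up 88.6% of the 898 genes of similar window length.

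Of the nuclear effectors, yki was bound upstream and sd was bound nowhere in the reproducible list. The gene yki (FBgn0034970), encoding the co-activator Yorkie, lies on 2R from 24065975 to 24068485, minus strand. A peak of 552 and rank 1070 had its summit 536 bp upstream of the yki TSS and 29 bp from the TSS of Gpat4, an acyltransferase gene. Replicate 2 held it at 252 and replicate 3 at 329. This was the only yki summit within 1000 bp of its TSS, and the count of bound start sites was 6 in place of 7 with a limit of 500 bp. Downstream, summits 5418 bp and 6057 bp from the yki TSS lay 16 bp and 3 bp from the TSSs of Rap2l, a small GTPase gene, and RpL39, a ribosomal protein gene. The Rap2l peak had 234, with 89.1 in replicate 2 and 143 in replicate 3. The RpL39 peak had 237, with 40.6 in replicate 2 and 195 in replicate 3.

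The gene sd (FBgn0003345), encoding the TEAD protein Scalloped, lies on X from 15804370 to 15827682, plus strand, and has 7 annotated TSSs. Its window of 33313 bp held no reproducible summit, whereas 74.6% of genes of that window class held at least 1. The relaxed lists held 7 peaks in replicate 2, from 22.3 to 49.6, and 14 in replicate 3, from 36.7 to 113. The pooled list held 10, from 45.6 to 113, all under the lowest reproducible signal of 165. Only 3 of these relaxed summits matched between the replicates within 100 bp, at 1331 bp and 463 bp upstream of the 5′ end and at 11935 bp inside the gene by the positions in replicate 2. Their signals in replicate 2 were 35.9, 28.2 and 48.4. The strongest sd peak of replicate 3, at 14454 bp, had 113 and rank 5245, so with replicate 3 alone sd counted as bound. Replicate 2 held no matching summit there.

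The survival gene Diap1 had the most reproducible summits of the 10 genes. Diap1 (FBgn0260635), an inhibitor of apoptosis and a standard reporter of Yki activity, lies on 3L from 16038410 to 16051034, minus strand, and has 5 annotated TSSs. Of the 2125 genes with windows of 15 to 25 kb, 99.7% had fewer than its 7 summits and 0.141% had more. The strongest was in intron 1 of the canonical transcript, 805 bp from the nearest Diap1 TSS and 4993 bp from the 5′ end of the gene, with 647 and rank 796. It shared its listed interval, 16045800 to 16046351, with another summit of 343 at a distance of 202 bp. In replicate 2 this interval held separate summits of 328 and 138, and in replicate 3 a single summit of 346 between them. That replicate 3 summit lay 132 bp from the strongest reproducible summit and 70 bp from the weaker one. Only the weaker one was thus matched within 100 bp by the top lists of both replicates.

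Another intronic Diap1 peak, 1470 bp from the nearest TSS, had 405.5, with 151 in replicate 2 and 257 in replicate 3. The summit in the 5′ UTR, 67 bp from a Diap1 TSS, had 243, with 41.6 and 193. The start-site summit, 84 bp upstream of the 5′ end, and a summit 903 bp upstream were weak, with 175 and 185.5. The nearest TSS of the second of these, at 22 bp, was that of Mbs, the myosin phosphatase subunit gene. The start-site summit was also within 1000 bp of a TSS of Mbs. At the start site, replicate 2 had 54.1 and replicate 3 had 119.6. At Mbs the values were 58.9 for replicate 2 and 124 for replicate 3. A further replicate 2 summit of 59.7 lay 148 bp inside the gene, under the same reproducible peak. Past the 3′ end a peak of 516 lay 1532 bp from the TSS of CG5895, with 195 and 329. The top list of replicate 2 alone held 4 summits at Diap1, and that of replicate 3 alone held 6.

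**Figure D2:**
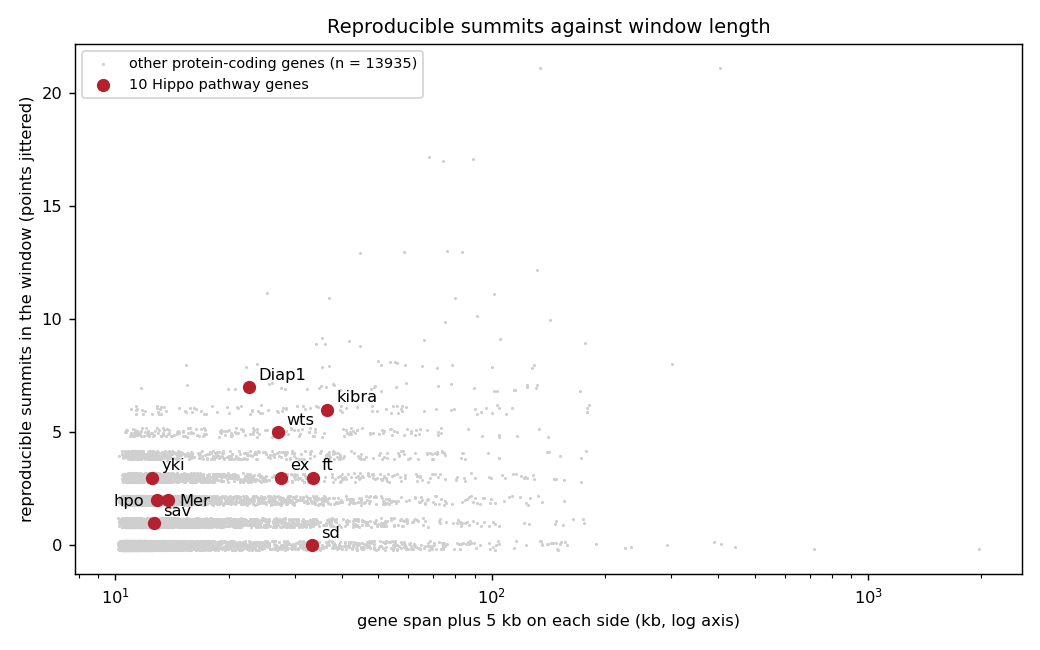
Number of reproducible summits in the gene span plus 5 kb against the length of that window on a log axis, for 10 Hippo genes (red) and the other 13935 protein-coding genes (grey, jittered). Diap1 with 7, kibra with 6 and wts with 5 summits lie high for their length, and sd with 0 lies at the bottom.

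Of the 32 summits, 20 had a summit within 100 bp in the top lists of both replicates, against 67.4% of the whole reproducible list. A top-list summit was found for 23 in replicate 2 and for 29 in replicate 3. Of the 12 intronic summits 10 were in both top lists, and of the 11 summits within 1000 bp of a member TSS 5 were. Those 5 were the Gpat4 summit upstream of yki, the start-site peaks of hpo, Mer and kibra and 1 Diap1 summit. The groups overlap, because the Mer start-site summit and both summits of the shared Diap1 interval are intronic too. Shares by position over the whole list are not given here.

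Signals of the replicates were compared at each reproducible peak, by the strongest relaxed peak of each replicate that overlapped it. The summit of that relaxed peak need not be the nearest one. Both summits of the shared Diap1 interval thus carried the same values, 328 in replicate 2 and 346 in replicate 3. Ratios by the nearest summit are not given here. On the log2 scale, replicate 3 over replicate 2 had a median ratio of 0.69 over the 31 summits with peaks in both relaxed lists, against 0.33 over 5553 peaks of the whole list, whose SD was 0.75. It ran from 0.04 to 2.99. The ratio exceeded the median of all peaks by over 1 SD at 8 of the 31 Hippo summits, against 17.0% of the 5553 peaks, and at none was it lower by over 1 SD, against 5.85%. The whole list also had higher values in replicate 3. The SD is the spread of single peaks and does not measure how exact a median of 31 summits is. Whether the Hippo summits differ from the whole list was not tested. The 8 were the RpL39 summit at yki, the Cdc42 summit at Mer, the start-site and intron 1 summits of wts, the p53 summit at sav, the 5′ UTR and Mbs summits of Diap1 and the Meltrin summit of kibra. The relaxed lists held 93 summits in replicate 2 and 133 in replicate 3 in the 10 windows, each list holding 30000 peaks in all. Of these 54 matched between the replicates, 58.1% of those of replicate 2 and 40.6% of those of replicate 3, against 39.2% of each whole list. The depth of the libraries is unknown from peak lists, and its part in these values was not tested.

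**Figure D3:**
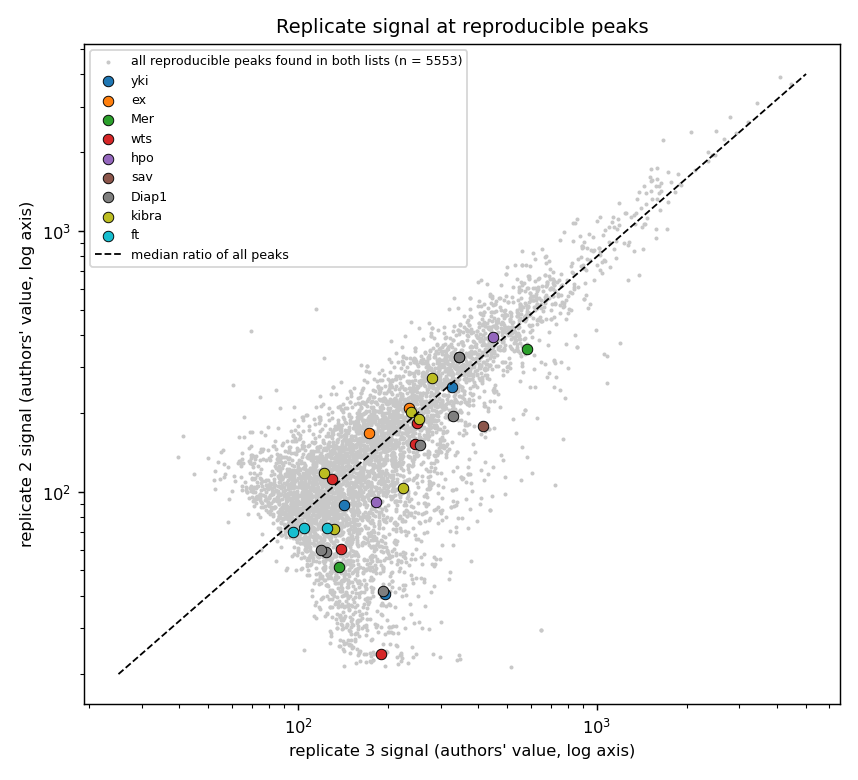
Signal in replicate 2 (vertical) against replicate 3 (horizontal), both on log axes, at reproducible peaks with an overlapping relaxed peak in each replicate, with 31 summits of 9 Hippo genes in colour and all 5553 peaks in grey. The dashed line is the median ratio of all peaks, and 8 coloured points, among them 1 of wts with 23.9 and 189, lie over 1 SD below it towards replicate 3.

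Motifs under the 32 summits were mostly rare, and the DRE was the most frequent beside the Smad box. Windows reaching 50 bp to either side of each summit were searched on both strands for 8 motifs. The DRE octamer TATCGATA, bound by the factor Dref, was in 6 of 32 windows, 18.8%, against 3.36% of all reproducible summits and 0.366% of windows 500 bp to either side of them. The 6 were the start-site summits of kibra, Diap1 and wts and the summits at p53, Rap2l and RpL39. All 6 were among the 19 summits within 1000 bp of any protein-coding TSS, where 5.28% of all reproducible summits held it, and none among the 13 farther away, where 0.181% did. The split by distance to a TSS was chosen after the values were seen, and TATCGATA is its own reverse complement.

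The Smad box GTCTG was in 4 of 32 windows, 12.5%, against 10.1% of all summits and 12.3% of the windows beside them. With 25 bp to either side it was in 1 window, 3.12% against 4.74%, and with 100 bp in 7, 21.9% against 20.1%, so the Hippo share was not on the same side of that of all summits at every width. The 4 were the Gpat4 summit upstream of yki, the start-site summits of hpo and wts and the RpL39 summit. The Scalloped core CATTCC was in 1 window, the Rap2l summit of the yki window, 3.12% against 3.56% of all summits and 4.59% beside them. In the windows beside the Hippo summits it was in 9.38%. With 100 bp to either side it was in 3, 9.38% against 6.97% of all summits, 9.25% beside these and 20.3% beside the Hippo summits. At 50 bp, none of the Diap1, ex, Mer or kibra windows held it. The GC-rich Mad motif GCCGNCGC was found once, at the cindr summit of wts, and CAGGTAG once, in the kibra intron. No window held GGCGCC, the palindrome GTCTAGAC, or GAGAGAG, the motif of GAGA factor. A match is a string of letters and not a shown binding site, and its absence says only that those letters are not in the window.

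**Figure D4:**
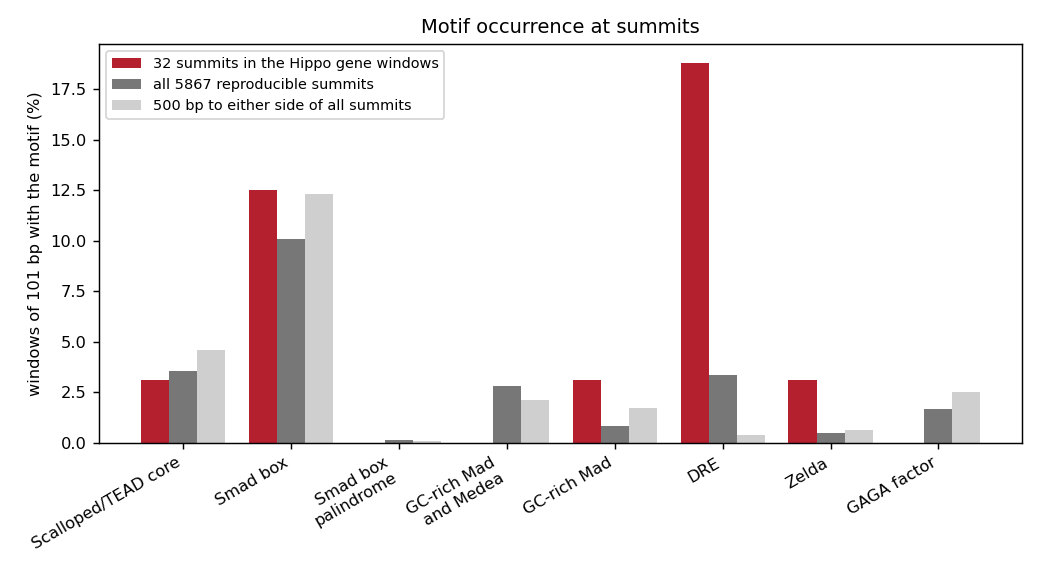
Share of windows of 50 bp to either side of the centre with each motif, in percent, at 32 summits of the Hippo gene windows (red), at all 5867 reproducible summits (dark grey) and 500 bp to either side of all summits (light grey). The DRE bar of the Hippo windows stands at 18.8% against 3.36%, while the Smad box and Scalloped core bars are close to those of all summits.

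Of 34 further genes on a fixed list, 28 had a reproducible summit in their span plus 5 kb, against 58.1% of all protein-coding genes, and 18 had one within 1000 bp of a TSS, against 31.3%. Their windows were long, up to 142008 bp for hth. By window length, 6 of 9 under 15 kb had a summit (53.3% of all genes of that class), 6 of 9 of 15 to 25 kb (71.9%), 8 of 8 of 25 to 50 kb (74.6%) and 8 of 8 of 50 kb or more (71.8%). These classes are small, and nothing particular to the pathway is read from the counts. In the cell-surface branch 5 of 7 had a summit. There the strongest peaks were at dco, a casein kinase gene, with 857 (434 in replicate 2 and 421 in replicate 3), and app, a palmitoyltransferase gene, with 598 (272 and 329.7), while fj and lft had none. Of the apical-basal polarity genes 5 of 6 had a summit, led by dlg1 with 717 (337 and 378) and aPKC with 581 (267 and 313), and l(2)gl had none.

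Of the genes of the kinase cassette and its regulators, 10 of 11 had a summit. The strongest were at msn, a Ste20-family kinase gene, with 632 in an intron (301 and 339), and in the window of Strip with 495, where the nearest TSS was that of PIG-C (272 and 213). Zyx, the zyxin gene, had none. Of 5 nuclear partners of Yki or Sd 3 had a summit, led by mask, a Yki cofactor gene, with 619 at its start site (234 and 382) and hth, a homeobox gene, with 457 in an intron (211 and 241). The nuclear partner genes tsh and Wbp2 had none. All 5 downstream targets of Yki had a summit in the window, and 1 of them, dally, had one within 1000 bp of a TSS. A peak in an intron of Myc, the growth regulator gene, had 675, 8765 bp from its TSS (306 and 365).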

How the data were processed

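Chromatin of 2 replicates of Med-eGFP embryos was sheared by sonication, per the labels, into fragments of 200 to 800 bp. The authors deposited relaxed dm6 peak lists per replicate and for both together, each of 30000 peaks, and an optimal list thresholded by irreproducible discovery rate. The deposited manifests derive each list from its alignments and 1 further file, the same for both replicates and taken to be the control. The sources used here do not name the aligner, caller, versions or threshold. The signal (column 7) and −log10 q value are the authors' deposited values. The q value reaches a ceiling and was not used. Read totals are unknown, so no interval for depth is given.

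Summits were counted from 1 and placed on genes of Ensembl release 115 (BDGP6.54), whose coordinates are those of dm6. Replicate signal at a reproducible peak is that of the strongest overlapping relaxed peak, whose summit need not be the nearest. Replicates were matched within 100 bp. Lists without a contrast allow no test, so counts stand beside the same counts over all genes or peaks. Members, the list of 34 further genes and the motifs were chosen with earlier results of these data known. The rule for names was all 10 members, the nearest neighbour gene of each summit, and per role the 2 further genes with the strongest peak and up to 2 without one in alphabetical order. The peak of 1 gene named by this rule is not reported here. The symbol d was matched to dachs through RefSeq synonyms. The counting was tested on simulated summits. Alternatives were other flanks, lists, distances and windows. The dm3 lists were not used here. Python 3.11.15 with pandas 2.3.3 was used.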

Additional observations from a re-analysis of the deposited data

How the results depend on the processing

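The count of 9 genes with a summit moved by over 1.5 times only without flanks, to 5. The 32 summits became 13 without flanks, 16 in the stronger part of the list, 113 in the relaxed pooled list and 19 where the nearest TSS had to be that of the member. They ranged from 26 to 32 with 1 replicate left out, while the genes with a summit ranged from 9 to 10 and bound start sites from 6 to 8. Without replicate 2, sd had 1 summit, and without replicate 3, Mer had 1 and Diap1 had 4. Windows with the Scalloped core numbered 1, against 0 with 25 bp and 3 with 100 bp to either side of the summit. At those widths windows with the Smad box numbered 1 and 7, against 4, and windows with the DRE 4 and 6, against 6. The other 23 alternatives tried for the main values did not move them past their limits, and for the counts of single genes 52 of 90 did not. No paired analysis was possible because there is only 1 group. Other flanks, list lengths and window widths count less or more by construction. With 1 replicate left out, the top list of the other was used, with 5867 peaks like the reproducible list. The cause of the moves was not tested. With 2 replicates, unknown depth and no untagged embryos analysed here, how many weak peaks would recur was not tested.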

Other observations

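Of the 54 relaxed summits in the Hippo windows that matched between the replicates within 100 bp, 26 lay within 100 bp of a reproducible summit and 28 did not. The 28 were spread over 8 of the windows and were mostly at wts, with 9, kibra, with 6, and Diap1, with 5. Their highest signals in replicate 2 were 69.7, at 2593 bp from the 5′ end of wts, and 68.4, at 6884 bp from the 5′ end of kibra. The yki and hpo windows held none. No explanation was tested.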
